A study of Mus musculus with 32 samples.

Results

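Tryptophan can be turned into NAD, the electron carrier and cosubstrate of sirtuins and PARPs, by a chain of enzymes known from liver and kidney. The transcripts described here are the 9 genes of that chain (Tdo2, Ido2, Afmid, Kmo, Kynu, Haao, Acmsd, Qprt and Nadsyn1), picked by their symbols from a count table of 32544 genes, and all 9 had a row. They were measured by poly(A) RNA-Seq in kidney cortex of 32 mice aged 25 weeks, 4 in each combination of sex, genotype and treatment. Every mouse carried the Col4a3tm1Dec allele on the C57BL/6J background. Controls were heterozygous (Col4a3+/-) and Alport mice homozygous (Col4a3-/-), the latter a model of the inherited nephropathy in which the glomerular basement membrane lacks part of its type IV collagen. Nicotinamide riboside (NR), a vitamin B3 form that enters NAD by salvage and not through tryptophan, was given as 0.5% w/w of a purified diet from 10 weeks of age, and vehicle mice ate the purified diet alone. The control mice therefore carry 1 copy of the disrupted allele and are not wild type, and each mouse is a single dissected piece of cortex that holds many cell types.

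Tdo2 and Ido2 encode dioxygenases that open the indole ring of tryptophan, and Afmid encodes the formamidase that then releases kynurenine. Kmo hydroxylates kynurenine, Kynu cleaves the product to hydroxyanthranilic acid, and Haao opens the ring of that acid to give an unstable semialdehyde. That semialdehyde closes by itself to quinolinic acid unless the decarboxylase encoded by Acmsd draws it away from NAD. Qprt then joins quinolinic acid to a ribose phosphate, and Nadsyn1 amidates the last intermediate to NAD. In the kidney the chain is known as a property of the proximal tubule.

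Positions are given in GRCm38 (mm10). Kmo lies at chr1:175632193-175660853 and Acmsd on the same chromosome at chr1:127729413-127767564. Qprt (chr7:127107770-127122029) and Nadsyn1 (chr7:143795589-143822862) share another. The others are Kynu at chr2:43555258-43683048, Tdo2 at chr3:81958412-81975728, Ido2 at chr8:24531892-24576414, Afmid at chr11:117825503-117839908 and Haao at chr17:83831348-83848981. Exons of Afmid overlap those of Gm20708 on the same strand and of Tk1, a thymidine kinase gene, on the opposite strand, and exons of Acmsd overlap the antisense transcript 2900009J06Rik. The strand setting of the counting is not given in the sources used here, so the Afmid and Acmsd values may hold some reads of those neighbors.

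RefSeq promoter sequences of the same build were used for 6 of the 9 genes. The 300 bases around each start (250 before and 50 after) were searched on both strands for AGGTCA, the half-site of nuclear receptors such as HNF4A, RXRA and PPARA, and for a direct repeat of that half-site with any 1 base between the copies where the first copy could also read AGGGCA. The direct repeat was in none of the 6 and in 0.0578% of all 32851 promoters. AGGTCA was in 2 of the 6 (Tdo2 and Haao, each on the strand opposite to the gene) and in 16.3% of all promoters. The 250 bases before the start are shown for 3 genes, because Haao holds a match and fell in Alport kidneys, Kmo fell with no match, and Qprt did not pass the test and has no match. Each is written along its gene, with matches in capitals as they read on that strand (a half-site found on the opposite strand appears as its reverse complement).
Haao (chr17:83846791-83847040, minus strand): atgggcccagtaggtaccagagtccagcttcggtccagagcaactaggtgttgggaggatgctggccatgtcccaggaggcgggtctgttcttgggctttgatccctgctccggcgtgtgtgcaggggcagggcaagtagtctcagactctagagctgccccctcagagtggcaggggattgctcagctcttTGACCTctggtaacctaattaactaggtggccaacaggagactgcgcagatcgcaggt
Kmo (chr1:175631943-175632192, plus strand): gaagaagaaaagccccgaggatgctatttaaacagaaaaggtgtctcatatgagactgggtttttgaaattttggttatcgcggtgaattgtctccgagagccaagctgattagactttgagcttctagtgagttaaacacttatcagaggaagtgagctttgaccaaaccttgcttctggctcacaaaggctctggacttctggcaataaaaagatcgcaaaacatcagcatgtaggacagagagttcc
Qprt (chr7:127122030-127122279, minus strand): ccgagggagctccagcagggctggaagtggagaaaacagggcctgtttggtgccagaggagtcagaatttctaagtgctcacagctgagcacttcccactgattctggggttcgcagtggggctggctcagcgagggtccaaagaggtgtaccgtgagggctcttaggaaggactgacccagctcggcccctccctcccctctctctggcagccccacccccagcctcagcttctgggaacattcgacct

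In Haao the nuclear receptor half-site began at base -58 from the start used for that promoter. This start and the promoter lie inside the Haao span given above, not at its end. These letters describe the sequence only and no binding was measured.

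Libraries held 16621944 to 27778797 counts. Col4a3, the targeted gene, read 151 to 201 CPM (counts scaled to a common library size, with TMM factors) in vehicle-treated male control mice and 54.6 to 83.2 in vehicle-treated male Alport mice, and 140 to 163 against 57.7 to 79.2 CPM in females. The 4 libraries labelled NR-treated male control read 59.3, 94.1, 75.2 and 160 CPM, so that replicates 1 and 3 lay inside the male Alport range. Their immune cell markers (263 and 241 CPM in sum) lay above the 192 to 219 CPM of vehicle-treated male control mice and below the vehicle-treated Alport range of 1300 to 1740 CPM. Replicate 2 lay between the male Alport and the vehicle-treated male control range of Col4a3. Col4a3 was also lower in NR-treated female control mice, at 105 to 124 CPM against 140 to 163 CPM on vehicle (log2 fold change -0.38, called lower by edgeR). The source of these low values was not tested. Values of the NR-treated male control group are given with and without replicates 1 and 3 where a call or a near call rests on them. All 17 proximal tubule markers had counts in every mouse.

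Per kilobase of exon, Haao was the most abundant member in vehicle-treated male control mice at 142 ± 7.6 CPM per kb (SD, n = 4). Kmo (54.2 ± 4.69) and Afmid (42.3 to 55.9) followed and overlapped, as did Qprt (36.6 ± 3.21) and Acmsd (31.9 ± 3.77). Nadsyn1 reached 13.6 ± 1.99, Kynu 6.88 ± 1.44 and Ido2 5.18 ± 0.83 CPM per kb. These levels use the union of all exons, and by its longest transcript Kynu came to 11.8 CPM per kb. Tdo2, a gene of hepatocytes, was near the detection limit, with 2 to 24 counts per library in all 32 mice. In vehicle-treated female control mice the order had Haao first at 99.4 ± 9.5 CPM per kb and Kynu above Nadsyn1, at 16.6 ± 1.42 against 11.4 ± 1.04. The place of Kynu depends on the length used, since by its longest transcript it was at 28.5 CPM per kb in these females, above Qprt (25.9). Hepatocyte markers (5 genes) summed to 24.0 to 261 CPM per library.

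**Figure D1:**
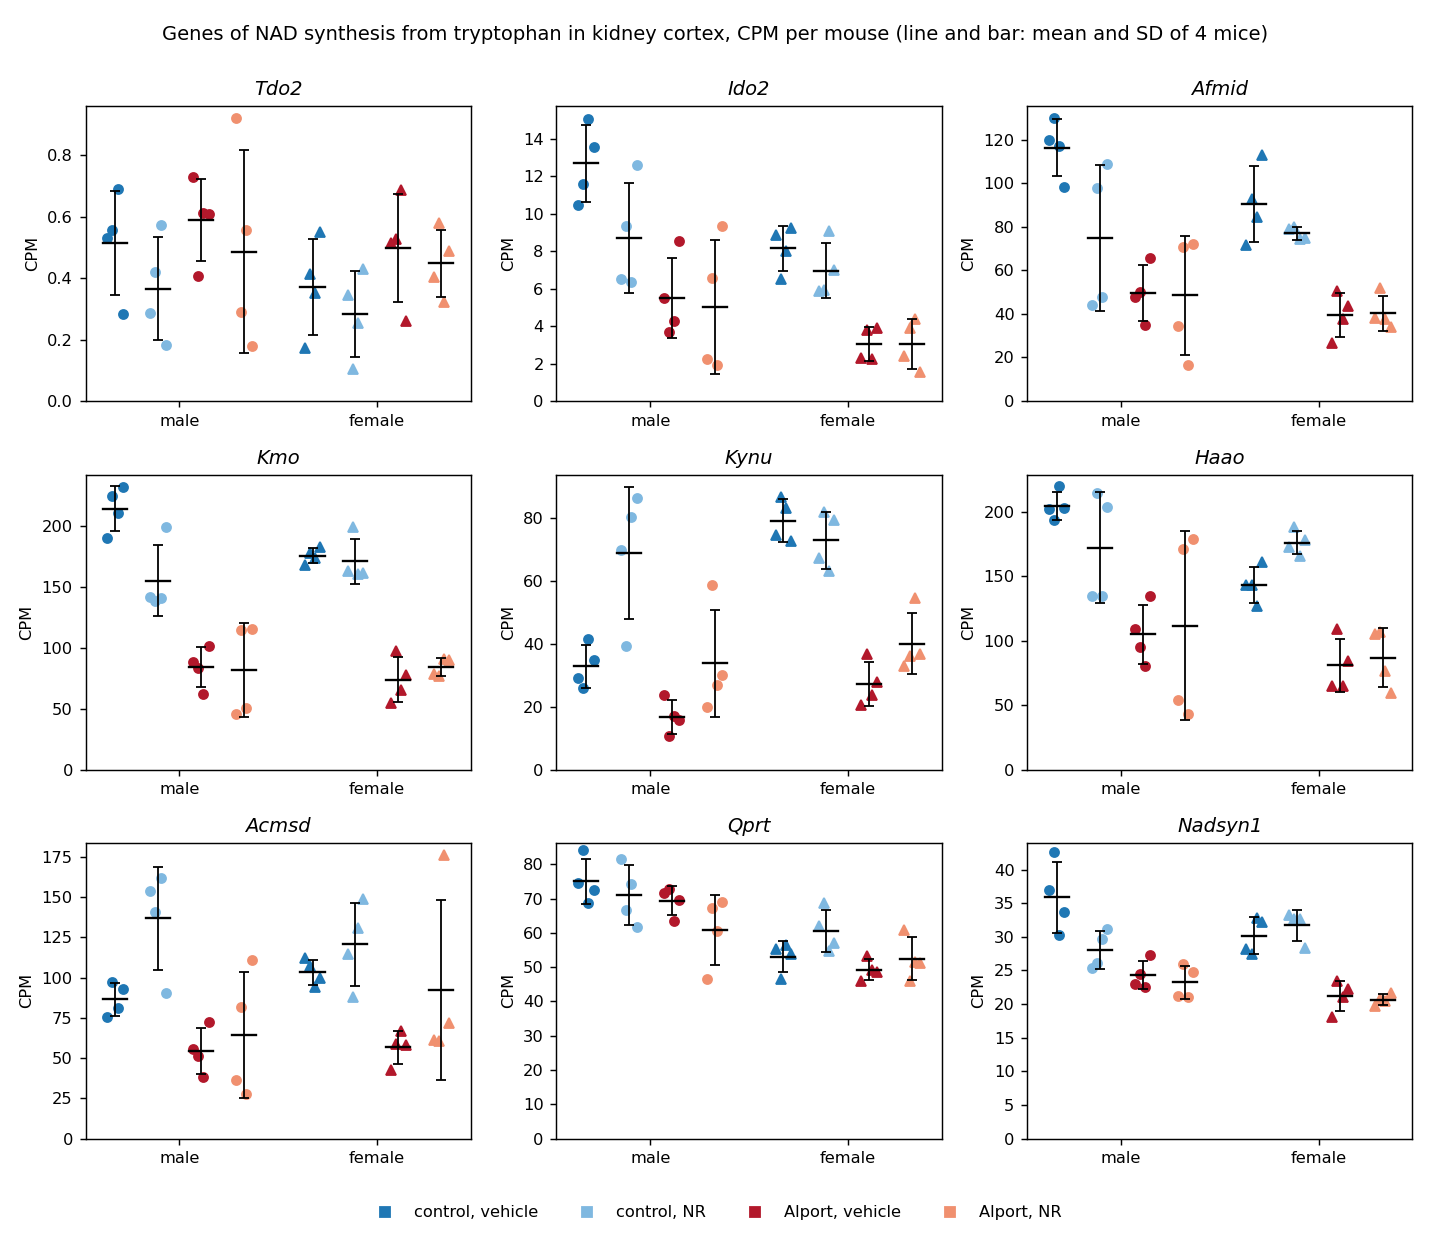
TMM-scaled CPM of the 9 genes in each mouse (y axis from 0), in groups of 4 by sex, genotype and treatment, with circles for males, triangles for females and black lines and bars for mean and SD. Kmo sits at 190 to 232 CPM in vehicle-treated male control mice and at 62.4 to 102 in vehicle-treated male Alport mice, Qprt overlaps between those groups, and the NR-treated male Alport mice spread widely for Haao, from 43.0 to 179 CPM.

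The first comparison asked which genes of the chain differed between vehicle-treated Alport and control kidneys. In each sex 7 of the 9 genes fell (Ido2, Afmid, Kmo, Kynu, Haao, Acmsd and Nadsyn1), while Tdo2 and Qprt did not pass the test and no member rose. Over all genes tested, 24.2% were called lower in males and 21.8% in females. For each of the 7 genes, all 4 Alport mice lay below all 4 control mice in both sexes. That separation was read in the same mice that gave the calls, and its share over all genes was not computed. The median log2 fold change of the 9 genes was -0.88 in males and -0.83 in females, against a median of -0.00 over all genes in either sex.

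At the entry to the chain, Ido2 fell and Tdo2 did not pass the test. Ido2 read 10.5, 11.6, 15.1 and 13.6 CPM in the vehicle-treated male control mice and 5.51, 3.69, 4.28 and 8.53 CPM in the Alport mice. The female values were 8.87, 6.53, 8.04 and 9.24 against 2.28, 3.81, 2.23 and 3.88 CPM. The Ido2 groups did not overlap in either sex, and the log2 fold change was -1.13 ± 0.23 (SE, adjusted p = 0.00162, edgeR quasi-likelihood test with Benjamini-Hochberg adjustment over all genes) in males and -1.39 ± 0.22 (adjusted p = 0.000548) in females. Tdo2 read 0.285 to 0.69 CPM in male control and 0.406 to 0.729 CPM in male Alport mice, with a log2 fold change of 0.28 (95% interval -0.50 to 1.05, adjusted p = 0.548). In females that value was 0.47 (-0.44 to 1.38, adjusted p = 0.376). At so few counts these Tdo2 intervals are wide, and they include changes in either direction.

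Afmid, the formamidase, was 120, 130, 117 and 98.5 CPM in vehicle-treated male control mice and 47.6, 50.1, 34.7 and 65.9 CPM in male Alport mice. In females it was 71.5, 92.7, 84.7 and 113 CPM against 26.8, 50.7, 37.7 and 43.5 CPM. Every Alport mouse was below every control mouse of its sex. The log2 fold change was -1.14 ± 0.16 (adjusted p = 0.000108) in the male and -1.15 ± 0.19 (adjusted p = 0.000734) in the female comparison.

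Kmo had the largest male decrease among the 9 genes. It read 190, 225, 211 and 232 CPM in vehicle-treated male control mice and 88.1, 83.7, 62.4 and 102 CPM in the Alport mice, and its log2 fold change was -1.26 ± 0.13 (adjusted p = 1.2e-05). Female control mice read 168, 178, 174 and 183 CPM and female Alport mice 54.7, 97.4, 65.9 and 77.9 CPM, a log2 fold change of -1.21 ± 0.15 (adjusted p = 0.000162). The gap between the groups was wide in both sexes: the highest Alport mouse reached 102 CPM and the lowest control mouse of the same sex 190 CPM in males, and 97.4 against 168 CPM in females.

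Kynu, the kynureninase, had the largest female decrease. The vehicle-treated female control mice read 74.5, 86.6, 83.2 and 72.6 CPM and the Alport mice 20.7, 36.7, 23.8 and 28 CPM, for a log2 fold change of -1.50 ± 0.16 (adjusted p = 6.75e-05). Males started lower, at 29.2, 25.9, 41.5 and 34.9 CPM in control and 23.7, 10.7, 17 and 15.7 CPM in Alport mice, for a log2 fold change of -0.88 ± 0.21 (adjusted p = 0.00404). The difference between the sexes in this change did not pass the test, with an interaction of -0.65 on the log2 scale (95% interval -1.26 to -0.03, adjusted p = 0.385).

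Haao, which opens the ring of hydroxyanthranilic acid, was 202, 194, 220 and 203 CPM in vehicle-treated male control mice and 109, 95.3, 80.5 and 135 CPM in male Alport mice. Female values were 143, 143, 127 and 161 CPM against 64.8, 109, 65.2 and 84.7 CPM. The groups did not overlap, with log2 fold changes of -0.88 ± 0.13 (adjusted p = 0.00018) in males and -0.79 ± 0.16 (adjusted p = 0.00235) in females.

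Acmsd, the branch enzyme that leads carbon away from NAD, fell as well. In males it read 75.4, 97.5, 80.9 and 92.8 CPM in control and 55.4, 51.1, 38.4 and 72.6 CPM in Alport mice, with a log2 fold change of -0.59 ± 0.16 (adjusted p = 0.00911). In a single fit of all 32 mice that male value was -0.67 and did not pass the test (adjusted p = 0.0897). In females it read 112, 107, 94.0 and 99.9 CPM against 42.6, 59.0, 66.6 and 58.2 CPM, with a log2 fold change of -0.83 ± 0.12 (adjusted p = 0.000381).

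The 2 closing enzymes differed from each other. Qprt, which makes the nicotinate nucleotide from quinolinic acid, read 74.5, 84.2, 68.7 and 72.5 CPM in male control and 71.5, 72.9, 63.4 and 69.5 CPM in male Alport mice. Female mice read 55.3, 46.5, 56.4 and 53.9 CPM in control and 45.9, 53.3, 49.1 and 48.5 CPM in Alport kidneys. The Qprt groups overlapped in both sexes, and the 95% intervals of its log2 fold change were narrow, -0.20 to 0.15 in males (estimate -0.03, adjusted p = 0.806) and -0.25 to 0.11 in females (estimate -0.07, adjusted p = 0.508). Nadsyn1, the NAD synthetase shared with the nicotinate branch, read 37.0, 42.7, 30.3 and 33.7 CPM in male control and 23.0, 24.5, 22.6 and 27.3 CPM in male Alport mice (log2 fold change -0.48 ± 0.11, adjusted p = 0.00299). In females it read 28.2, 27.4, 32.8 and 32.2 CPM against 18.1, 23.4, 21.1 and 22.2 CPM (-0.47 ± 0.10, adjusted p = 0.00309).

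**Figure D2:**
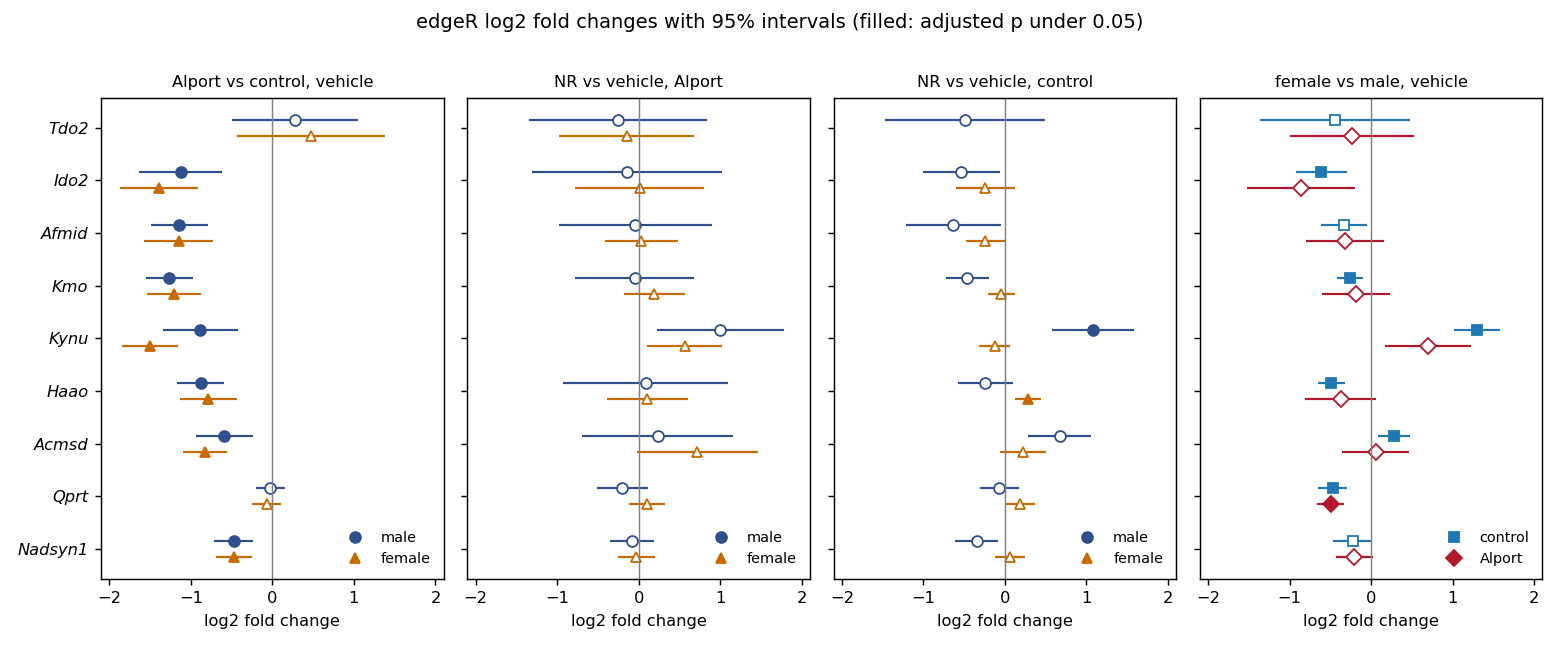
edgeR log2 fold changes (x axis) of the 9 genes with 95% intervals, in 4 panels for vehicle-treated Alport against control, NR against vehicle in Alport mice, NR against vehicle in control mice, and female against male, where filled symbols passed an adjusted p of 0.05. In the first panel 7 genes lie left of 0 in both sexes while Qprt and Tdo2 cross it, and in the second panel no symbol is filled.

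Whether these decreases differed between males and females was tested as an interaction in the 16 vehicle-treated mice. No member was called (0.532% of all genes were), and at an unadjusted p under 0.05 Kynu alone was counted. DESeq2 and limma-voom also called 0 members. Outside Kynu, the interaction estimates ran from -0.30 (Ido2) to 0.16 (Tdo2).

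Markers of cell types moved with genotype. Of 17 proximal tubule markers, 17 fell in vehicle-treated male Alport mice and 16 in females, where Slc7a13 rose. Their sum was 29400 to 32200 CPM in male control and 9600 to 15600 CPM in male Alport mice, and 20400 to 24800 against 8640 to 14200 CPM in females. Markers of macrophages and other immune cells rose in 16 of 16 genes in males and 14 of 16 in females, from 192 to 219 CPM in sum up to 1300 to 1740 CPM in males and from 212 to 429 up to 1080 to 1940 CPM in females. All 7 fibroblast markers rose in both sexes. Of 8 genes that mark the loop of Henle or collecting duct, 5 fell in males and 4 in females. In such bulk samples fewer cells of a type and less RNA per cell cannot be told apart.

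The members were also set against the proximal tubule marker mean. The mean log2 CPM of the 17 markers differed by -1.23 in male and by -0.9 in female Alport mice from controls. Relative to that mean, the male differences of Afmid (-0.03), Ido2 (-0.03) and Kmo (-0.14) were close to 0 and their groups overlapped. In females Kynu (-0.67) and Kmo (-0.38) stayed below the marker mean without overlap, and Ido2 (-0.54) and Afmid (-0.31) were lower with overlap. Haao came to 0.24 in males and 0.04 in females, with overlap. Acmsd was higher relative to the markers in males (0.53, no overlap) and at 0.02 in females. Qprt (1.12 in males and 0.79 in females) and Nadsyn1 (0.68 and 0.39) were higher relative to the markers in both sexes without overlap. Because the marker mean itself fell, a gene with no change also comes out higher relative to the markers. The median log2 fold change over all genes was -0.0 in each sex. The share of all genes without overlap on this relative scale was not computed. These relative values are a description and were not tested.

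Within groups the members varied with the tubule markers to different degrees. After the mean of each of the 8 groups was removed, the correlation with the proximal tubule marker mean over 32 mice was 0.90 for Haao, 0.87 for Afmid and Kmo, 0.79 for Ido2 and 0.69 for Acmsd. It was 0.50 for Nadsyn1, 0.38 for Kynu, 0.32 for Qprt and -0.49 for Tdo2. The 2 values of a mouse share its library and scaling. Without the pair of mice farthest from the median of the member, these were 0.83 for Haao, 0.78 for Afmid, 0.84 for Kmo, 0.68 for Ido2 and 0.33 for Kynu. The NR-treated male Alport mice spread most, with a log2 SD of 1.08 for Haao against at most 0.40 in other groups. Their marker means ran from 7.11 to 9.27. These mice carry much of the within-group spread of Haao, and correlations without their whole group were not computed. Among the members, Afmid and Haao were most alike (0.88), and Afmid and Qprt had the lowest positive value (0.07).

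**Figure D3:**
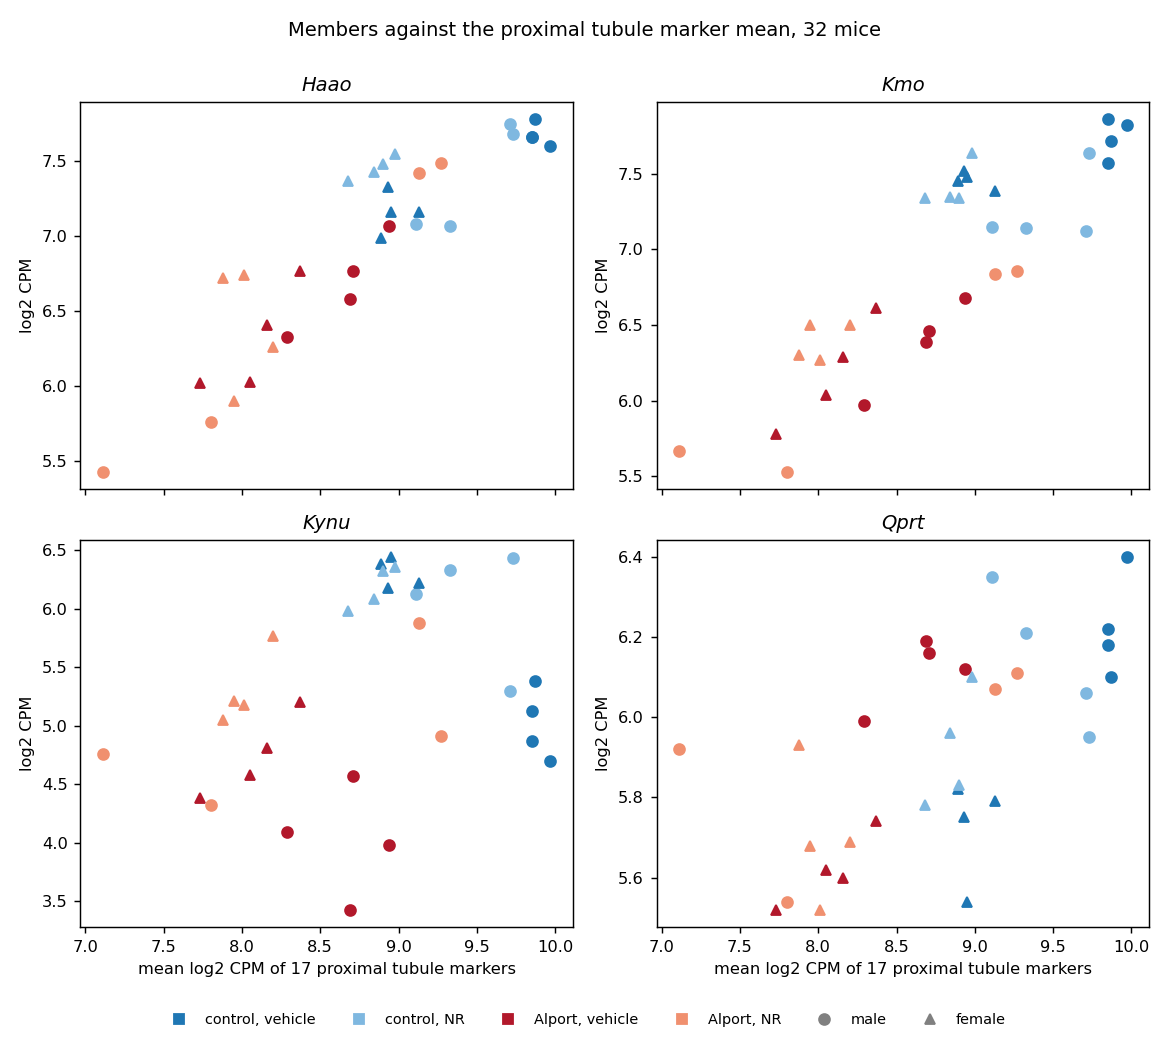
log2 CPM of Haao, Kmo, Kynu and Qprt (y axes, each with its own range) against the mean log2 CPM of 17 proximal tubule markers (x axis) in 32 mice, with color for genotype and treatment and shape for sex. Haao and Kmo run with the marker mean, vehicle-treated male control mice sit low for Kynu at a high marker mean, and Qprt spans a narrow range. The marker list includes the sex-dependent transporters Slc7a13 and Slc22a30. Between females and males in vehicle control the median log2 fold change of the markers was 0.08 and the lowest -8.3.

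The genes with the most similar within-group pattern over the 32 mice were Msra (r = 0.97) and Sardh (0.97) for Haao, Slc13a2 (0.96) and Slc22a6 (0.94) for Afmid, and Mut (0.95) and Gstz1 (0.94) for Kmo. Slc13a2 and Slc22a6 encode tubular transporters of dicarboxylates and organic anions. For Kynu they were Hadhb (0.81), a subunit of the mitochondrial trifunctional protein, and Hnmt (0.81). For Acmsd they were Glyctk (0.85) and Abhd14a (0.84), for Ido2 Pgam1 (0.91), for Nadsyn1 Tanc2 (0.80), and for Qprt Tctex1d2 (0.76). Tdo2 at its few counts was most like Nectin4 (0.71). The wide spread of the NR-treated male Alport mice enters these correlations too.

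The genes around the chain were read from 5 lists with 27 genes. Of the 6 genes in side branches of tryptophan breakdown, 5 fell in Alport kidneys of each sex. Aadat, an aminotransferase that makes kynurenic acid, had log2 fold changes of -1.21 (adjusted p = 2.02e-05) in the male and -1.28 (adjusted p = 0.023) in the female comparison. Its relatives Ccbl1 (Kyat1) and Ccbl2 (Kyat3) fell by 0.62 and 0.85 in males and by 0.44 and 1.06 in females on the log2 scale. Aldh8a1, the dehydrogenase downstream of Acmsd, had values of -1.03 and -1.04, and Got2 of -0.56 and -0.60. Ido1 did not pass the test in either sex (adjusted p = 0.08 and 0.592). The list median was -0.89 in males and -0.82 in females.

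Transport genes moved in both directions. Slc6a19, the apical neutral amino acid transporter that takes up filtered tryptophan, had log2 fold changes of -1.33 in males and -1.46 in females, and Tmem27 (Cltrn), the protein that brings it to the brush border, of -0.96 and -0.75. Slc7a5, an exchanger that carries tryptophan and kynurenine, rose, with a male value of 1.53 (adjusted p = 4.16e-05) and a female value of 1.24 (adjusted p = 0.000151). Slc7a8 (-0.30 and -0.47) and Slc16a10 (-0.28 and -0.29) fell in both sexes. Slc3a2, the heavy chain of the Slc7a5 and Slc7a8 exchangers, fell in females (-0.26, adjusted p = 0.0413) and was -0.06 in males (adjusted p = 0.553), and the interaction of sex and genotype was -0.23 (adjusted p = 0.483).

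The other routes to NAD were lower at some steps. Naprt, which starts the nicotinate branch, had log2 fold changes of -0.50 and -0.53, and Nmnat1, the nuclear adenylyltransferase that all routes share, of -0.34 in each sex. In this list 2 of 4 tested genes fell in males and 3 of 5 in females, where Slc22a13 was the third (-0.83, adjusted p = 0.00614). In the salvage list, Nampt, its rate-limiting enzyme, had values of -0.87 (adjusted p = 2.74e-06) and -0.90 (adjusted p = 0.000251). Nmrk1, the kinase that phosphorylates NR, had values of -0.87 and -0.35 (adjusted p = 0.000422 and 0.011). The sex difference in the Nmrk1 change was 0.49 and did not pass the test (95% interval 0.09 to 0.89, adjusted p = 0.292). Nnmt, which methylates nicotinamide and so removes it, rose, with values of 3.16 in male kidneys (adjusted p = 0.000823) and 2.65 in female kidneys (adjusted p = 0.00144).

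The 5 transcription regulators of tubule metabolism described here fell in each sex. Ppara, a lipid-sensing nuclear receptor, had log2 fold changes of -0.94 in males and -1.14 in females, and its coactivator Ppargc1a of -0.66 in both. Hnf4a had values of -0.83 and -0.81, Esrra of -0.69 and -0.75, and Rxra of -0.49 and -0.41. Across the 5 lists, Slc7a5 and Nnmt were the 2 genes of 27 that rose.

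**Figure D4:**
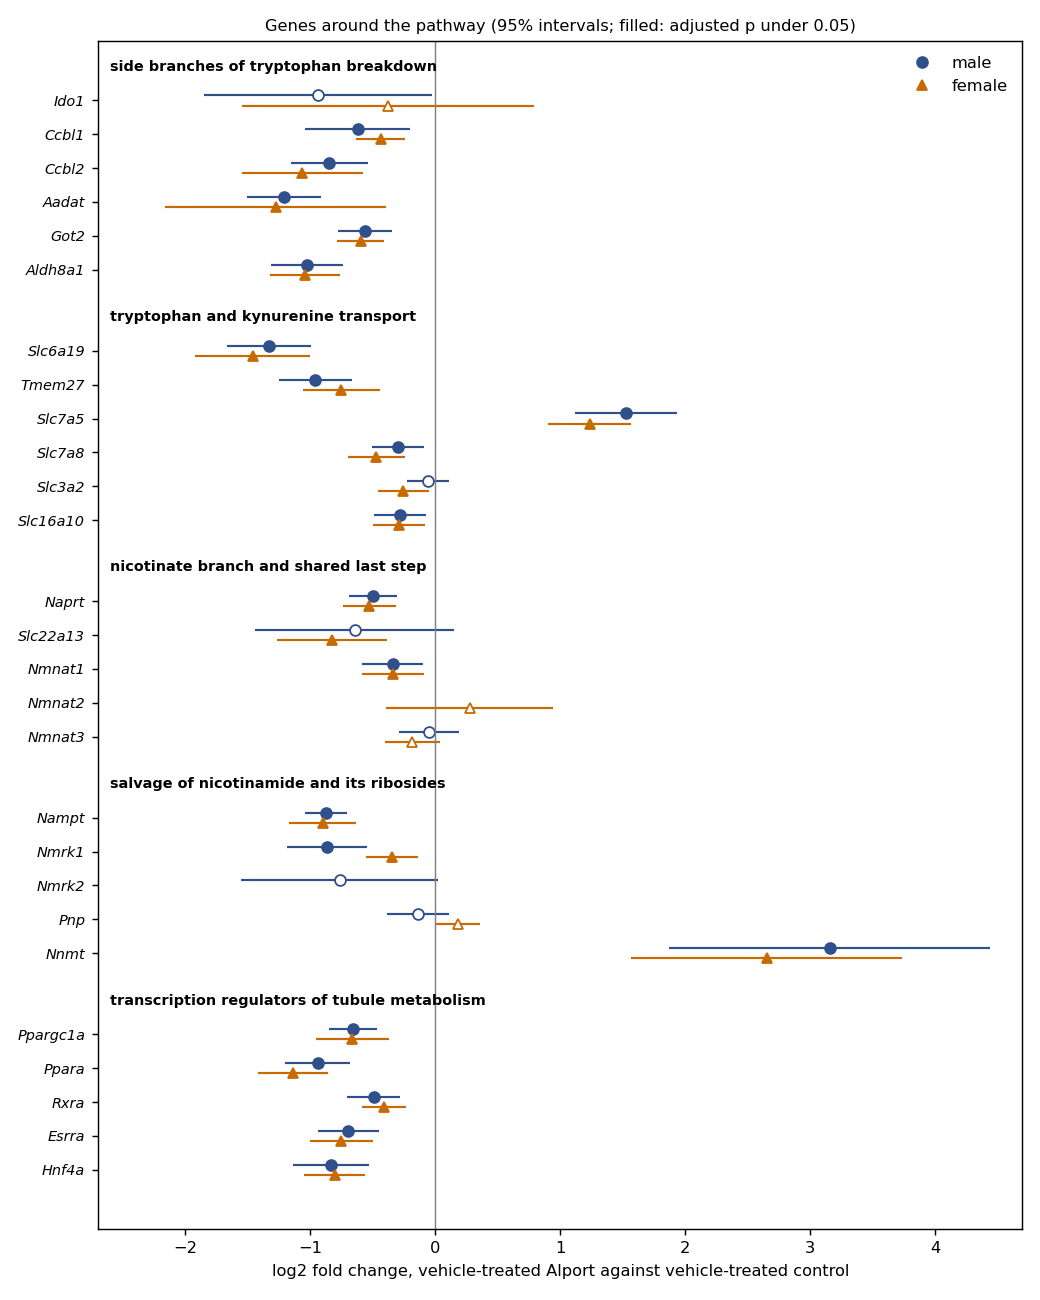
edgeR log2 fold changes with 95% intervals (x axis) of 27 genes in 5 lists, vehicle-treated Alport against vehicle-treated control, for males (circles) and females (triangles), filled where the adjusted p was under 0.05. Most filled symbols lie left of 0, and Slc7a5 and Nnmt lie right of it, at 1.53 and 3.16 in males.

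The next comparison asked whether NR changed the chain in Alport kidneys. No member was called in either sex (0.0% of all genes were called in males and 0.477% in females, either direction), and DESeq2 and limma-voom also called 0 members. The male share rests on 1 library. Without replicate 1 of the NR-treated male Alport mice, 91 genes were called higher and 289 lower, with 0 members among them, and DESeq2 in all 8 mice called 45 higher and 17 lower. Replicate 1 had an immune marker sum of 2290 CPM and a fibroblast marker sum of 1840 CPM, against 694 to 911 and 353 to 586 CPM in the other mice of its group, and the part of these cells in the result was not tested. At an unadjusted p under 0.05 only Kynu was counted, in both sexes. Kynu read 19.9, 58.6, 27.1 and 30.0 CPM in NR-treated male Alport mice, and the highest vehicle-treated mouse read 23.7 CPM. Replicate 1 lay within the vehicle range and the others above it, for a log2 fold change of 1.0 (95% interval 0.22 to 1.79, adjusted p = 0.905). Without replicate 1 it was 1.19 (adjusted p = 0.0876). In NR-treated female Alport mice Kynu read 33.0, 36.1, 54.5 and 36.9 CPM against 20.7 to 36.7 CPM on vehicle (0.56, interval 0.10 to 1.03, adjusted p = 0.228). The female groups overlapped.

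Other members were spread more widely on NR in males than the test could resolve. In NR-treated male Alport mice Haao read 54.3, 171, 43.0 and 179 CPM, Afmid 34.4, 70.8, 16.6 and 72.1 CPM, and Kmo 46.1, 115, 50.9 and 116 CPM. Replicates 2 and 4 were the higher pair for each of these genes, and also for Ido2 (2.23, 6.60, 1.93 and 9.36 CPM) and Acmsd (36.4, 81.6, 27.9 and 111 CPM). The proximal tubule marker sums of the same mice were 7290, 19500, 5480 and 20200 CPM, and their part in the spread was not tested. The 95% intervals of the NR effect in males reached from -0.92 to 1.09 for Haao, from -0.98 to 0.90 for Afmid and from -0.78 to 0.68 for Kmo. Qprt (-0.51 to 0.11) and Nadsyn1 (-0.35 to 0.19) had narrower intervals.

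In females the NR groups were tighter for most members. Kmo read 78.9, 77.1, 90.7 and 90.3 CPM on NR (log2 fold change 0.19, 95% interval -0.18 to 0.56), and Nadsyn1 19.7, 20.8, 20.4 and 21.7 CPM (-0.03, interval -0.26 to 0.20). Acmsd read 61.5, 60.4, 176 and 71.8 CPM, with replicate 3 far above the others, and its log2 fold change was 0.72 (interval -0.03 to 1.46, adjusted p = 0.312). Without replicate 3 it was 0.20 (adjusted p = 0.644). Ido2, Afmid, Haao and Qprt had estimates between 0.01 and 0.11.

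Against vehicle-treated control mice, NR-treated Alport mice had lower values at several steps, and these values share their control mice with the first comparison. In females 6 members were called lower (11.6% of all genes were): Ido2 (-1.41), Afmid (-1.16), Kmo (-1.06), Kynu (-0.98), Haao (-0.72) and Nadsyn1 (-0.54). In a single fit of all 32 mice Haao did not pass the test there (-0.72, adjusted p = 0.0798). Acmsd was -0.15 there (adjusted p = 0.769), and without replicate 3 of the NR-treated female Alport group it was -0.67 (adjusted p = 0.00273). In males 2 members were called lower (6.81% of all genes were): Kmo (-1.33 ± 0.31, adjusted p = 0.0177) and Nadsyn1 (-0.57 ± 0.13, adjusted p = 0.0181). The male Kmo call was lost without vehicle control replicate 2 or 4, and the Nadsyn1 call without vehicle control replicate 1 or 2. The male estimates for Ido2 (-1.28), Afmid (-1.20) and Haao (-0.81) did not pass the test (adjusted p = 0.0757, 0.0563 and 0.199). Afmid passed with the replicate number as a block (-1.41, adjusted p = 0.0476) and with no count filter (-1.21, adjusted p = 0.0492), and DESeq2 and limma-voom called 4 members each. Male Kynu was 0.10 (95% interval -0.59 to 0.79, adjusted p = 0.837).

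In control mice NR was compared with vehicle in each sex. Among the libraries labelled NR-treated male control, Kynu read 69.8, 39.3, 80.4 and 86.4 CPM against 25.9 to 41.5 CPM on vehicle. Replicates 1, 3 and 4 were above every vehicle-treated mouse and replicate 2 was within their range. Kynu was the 1 member called (4.53% of all genes were), with a log2 fold change of 1.08 ± 0.23 (adjusted p = 0.0301). Without the 2 libraries whose Col4a3 lay in the Alport range, it was 0.93 and did not pass the test (adjusted p = 0.181), and leaving out single mice moved its adjusted p between 0.00405 and 0.103. The fit without those 2 libraries keeps only replicates 2 and 4 of the group and has less power. A lost call there does not show that the change rests on the libraries left out. The call was lost without vehicle control replicate 1, 2 or 4 or NR-treated control replicate 1 or 3.

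Acmsd in the same male comparison read 154, 141, 162 and 90.7 CPM against 75.4 to 97.5 CPM (log2 fold change 0.67, adjusted p = 0.0558, and 0.41 with adjusted p = 0.337 without the 2 libraries). Replicate 4, the mouse with the highest Col4a3, was the one within the vehicle range. Kmo read 142, 139, 141 and 199 CPM against 190 to 232 CPM (-0.46, adjusted p = 0.0579, and -0.35 with adjusted p = 0.317 without the 2 libraries). Afmid read 43.9, 98, 48 and 109 CPM, where replicates 1 and 3 were again the low pair and lay in the range of the vehicle-treated male Alport mice, and its estimate moved from -0.63 to -0.17 without them. Ido2 of these 2 libraries (6.52 and 6.35 CPM) also lay in that range. Their Kmo (142 and 141 CPM), Kynu (69.8 and 80.4 CPM) and Acmsd (154 and 162 CPM) lay above every vehicle-treated male Alport mouse (highest 102, 23.7 and 72.6 CPM). The proximal tubule marker sums of the 4 libraries were 19000, 27200, 21000 and 27100 CPM. Their fibroblast marker sums were 181, 187, 171 and 119 CPM, all above the 80.6 to 104 CPM of vehicle-treated male control mice, with 4 of 7 fibroblast markers called higher in this comparison. Their immune marker sums were 263, 469, 241 and 233 CPM, with 2 of 14 tested immune markers called higher. The part of these 3 cell types in the values of Kynu, Acmsd, Kmo and Afmid was not tested. Without NR-treated control replicate 4, Ido2, Kmo and Acmsd passed the test (adjusted p = 0.0267, 0.006 and 0.00311), and that fit keeps replicates 1 and 3. Without replicates 1 and 3 Ido2 was -0.21 (adjusted p = 0.665).

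In female control mice Haao read 173, 188, 166 and 178 CPM on NR and 143, 143, 127 and 161 CPM on vehicle. The groups did not overlap, and Haao was the 1 member called of 8 tested (6.18% of all genes were), with a log2 fold change of 0.29 ± 0.07 (adjusted p = 0.0413). With the replicate number as a block its adjusted p was 0.0685, in 1 fit of all 32 mice it was 0.756, and leaving out any mouse but vehicle control replicate 4 also ended the call. Kynu was -0.13 in this comparison (95% interval -0.32 to 0.07). Tdo2 was below the count filter there.

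In the 5 lists around the chain, no gene was called for NR against vehicle in Alport mice, with 0 of 26 tested genes called in males and 0 of 27 in females (5 and 8 at an unadjusted p under 0.05). limma-voom called 0 in either sex, and DESeq2 0 in males and 1 in females. In the male control comparison 5 of 25 were called. Ccbl1 (-0.64), Aadat (-0.60) and Tmem27 (-0.55) fell, and the transporters Slc3a2 (0.51) and Slc16a10 (0.36) rose. Without the 2 libraries in question these came to -0.56, -0.42, -0.42, 0.36 and 0.27, and none passed the test, with adjusted p from 0.0878 to 0.24. That fit has fewer mice and less power. In female control mice 2 of 25 were called, Pnp (0.36), a phosphorylase of nucleoside salvage, upward and Ppara (-0.45) downward.

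Tests of the difference between NR effects gave 1 member. NR effects on Kynu differed between female and male control mice by -1.20 ± 0.26 on the log2 scale (adjusted p = 0.0473, with 0.683% of all genes called). Without the 2 libraries labelled NR-treated male control, a fit with fewer mice and less power, this was -1.06 with an adjusted p of 0.201. The adjusted p was 0.0605 with the replicate block, 0.0668 in limma-voom and 0.311 in 1 fit of all mice. Leaving out any single mouse except NR-treated male control replicates 2 and 4 and vehicle male control replicate 3 also ended it, with adjusted p up to 0.115. The interaction of NR with genotype called 0 members in males (0.0% of all genes) and 0 in females (0.0%). Both shares depend on 1 library each and on the method. The smallest adjusted p by edgeR was 0.29 in males and 0.0501 in females, and DESeq2 called 20 and 30 genes, limma-voom 0 and 0. Without replicate 1 of the NR-treated male Alport mice 59 genes were called higher and 723 lower, and without replicate 1 of the NR-treated female Alport mice 21 higher and 24 lower, again with 0 members. Without the 2 libraries labelled NR-treated male control the male interaction called 0 genes, with 774 at an unadjusted p under 0.05. At an unadjusted p under 0.05 it counted 0 members in males and Kynu in females. The sex-by-NR interaction in Alport mice also called 0 members (0.0% of all genes), with 0 at an unadjusted p under 0.05. DESeq2 and limma-voom called 0 members in these 3 tests.

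Males and females on vehicle were compared last. In control mice 6 of the 9 genes differed (31.7% of all genes did). Kynu was higher in females by 1.3 ± 0.13 on the log2 scale (adjusted p = 2.48e-05), with 72.6 to 86.6 CPM against 25.9 to 41.5 CPM in males. Acmsd was also higher in females (0.28 ± 0.09, adjusted p = 0.0331). Ido2 (-0.61), Haao (-0.49), Qprt (-0.47) and Kmo (-0.26) were lower in females. Acmsd lost its call without any 1 of 5 mice (male control replicates 1 and 3 and female control replicates 1, 2 and 4), and Kmo without male control replicate 4 (adjusted p = 0.0501). In a single fit of all 32 mice Ido2, Haao, Kmo and Acmsd did not pass the test (adjusted p = 0.233, 0.245, 0.382 and 0.637). Afmid was -0.34 in females (adjusted p = 0.0647) and passed in DESeq2 (-0.35, adjusted p = 0.0291). The proximal tubule marker mean, whose list includes the sex-dependent transporters Slc7a13 and Slc22a30, was -0.91 in females relative to males. The median log2 fold change of the 17 markers was 0.08 and the lowest was -8.3, with 7 called lower and 3 called higher in females. The mean is therefore not a measure of tubule content between the sexes.

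In vehicle-treated Alport mice Qprt was the 1 member that differed by sex (3.84% of all genes did). Females read 45.9, 53.3, 49.1 and 48.5 CPM and males 71.5, 72.9, 63.4 and 69.5 CPM. The log2 fold change was -0.50 ± 0.07 (adjusted p = 0.00599), near its value of -0.47 in control mice. Kynu was 0.70 in females relative to males (95% interval 0.17 to 1.22, adjusted p = 0.135) and its groups overlapped, with 20.7 to 36.7 CPM against 10.7 to 23.7 CPM.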

How the data were processed

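Kidney cortex of 32 mice (4 in each of 8 groups) was profiled by poly(A) RNA-Seq. Alignment and counting were done by the authors in BioJupies, the build in the submitters' processing notes is mm10, and the aligner, annotation and strand setting are not given in the sources used here. The authors deposited raw counts per gene symbol, which were used, and log10(CPM + 1) values, which differed from those recomputed from the counts by at most 8.88e-16 and were not used further. Groups came from the sample labels, and nothing in them pairs mice.

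The test on counts was the quasi-likelihood F test of edgeR 4.0.16 (R 4.3.3), after TMM scaling and filterByExpr at a minimum count of 10, with 1 fit per comparison of 8 mice or interaction of 16 mice. P-values were Benjamini-Hochberg adjusted over all genes tested, with a threshold of 0.05. CPM were TMM-scaled, and log2 CPM used a prior count of 2. Likeness between genes was Pearson correlation of deviations from the group means. Alternatives were DESeq2 1.42.0, limma-voom (limma 3.58.1), other scalings and filters, 1 fit of all 32 mice, a replicate block and leaving out each mouse. A fit without the 2 libraries labelled NR-treated male control was chosen after seeing the data. It has fewer mice in that group and less power than the main fit. The main fit, DESeq2, limma-voom and the replicate block were also run on simulated counts for 2 comparisons. Those counts were drawn independently at the spread fitted to these data, without shifts of single mice, and their outcome is not reported here.

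Exon lengths came from GENCODE M21 and promoters from RefSeq (GRCm38.p6). Total counts of 16621944 to 27778797 per library set the precision, and intervals come from the spread between mice. Replicate numbers were checked in 40 same-numbered pairs, whose correlations ran from -0.167 to 0.261 with 5 over 0.1 and 0 comparisons with all over 0.1, so they were not taken to pair mice. Within groups 48 pairs of libraries differed by more than sampling (chi-square per degree of freedom at least 7.96).

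The genes were those of the tryptophan route by symbol. All 9 are named, with the 3 genes most like each considered for naming. The members and lists were chosen with earlier results of these data known. Some genes of these lists are not reported here, and promoter sequences are printed for 3 genes only.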

Additional observations from a re-analysis of the deposited data

Results flagged for a closer look

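In 4 of 72 sets of 4 mice (9 genes in 8 groups), 1 mouse lay far from the other three by Dixon's test, about the share that chance gives (1 in 20). Kmo read 199 CPM in replicate 4 labelled NR-treated male control, against 139 to 142 CPM in the others. Kmo also read 199 CPM in replicate 2 of the NR-treated female control mice, against 161 to 163 CPM. Acmsd read 176 CPM in replicate 3 of the NR-treated female Alport mice, against 60.4 to 71.8 CPM. Nadsyn1 read 28.3 CPM in replicate 4 of the NR-treated female control mice, against 32.6 to 33.3 CPM. The difference between the sexes in the NR effect on Kynu in control mice was flagged because its interaction term passed the threshold. It was -1.2 on the log2 scale (adjusted p = 0.0473 by edgeR). It did not pass without the 2 libraries labelled NR-treated male control whose Col4a3 lay in the Alport range (adjusted p = 0.201). That fit has fewer mice and less power.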

How the results depend on the processing

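The 7 decreases of Alport against control mice were called in each sex without any 1 mouse (7 to 7 members) and in every other fit except that of all 32 mice in males, which lost Acmsd. That fit also lost Haao for NR-treated female Alport against vehicle-treated control. Leaving out mice gave 0 to 0 members for NR in Alport mice of either sex, 0 to 4 for NR in male and 0 to 1 in female control mice, 0 to 4 in males and 6 to 7 in females for NR-treated Alport against vehicle-treated control, 5 to 6 and 1 to 1 for sex in control and Alport mice, 0 to 2 for the sex-by-NR interaction in control mice, and 0 to 0 for the other 4 interactions. For NR in male control mice (1 member called) DESeq2 called 3, no count filter 2, the fit of 32 mice 2 and the fit without 2 libraries 0. For NR in female control mice (1) the fit of 32 mice called 0. For NR-treated male Alport against vehicle-treated control (2) DESeq2 called 4, limma-voom 4 and the fit of 32 mice 6. For sex in control mice (6) the fit of 32 mice called 2. For the sex-by-NR interaction in control mice (1) limma-voom, the fit of 32 mice and the fit without 2 libraries called 0. The replicate block, whose numbers share no pairing, called 0 members for NR in female control mice and 0 for that interaction, and added Afmid for NR-treated male Alport against vehicle-treated control. Relative to the proximal tubule marker mean, Alport against control was positive for Kynu in males (0.23), Haao (0.24 in males and 0.04 in females), Acmsd (0.53 and 0.02) and Nadsyn1 (0.68 and 0.39). The marker mean itself fell, so a gene with no change also comes out positive on that scale. Causes of these changes were not tested. In 143 cases a value changed sign in an alternative fit, with no call in that fit or in the main fit. Tdo2, at 2 to 24 counts, is limited by depth.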
